A study of Homo sapiens with 6 samples.

Results

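The genes described here encode the proteasome, its activators, its inhibitor and its assembly chaperones. They were chosen by name, as protein-coding rows whose Ensembl identifier maps to a symbol that begins with PSMA, PSMB, PSMC, PSMD, PSME, PSMF or PSMG and goes on with a digit. The rule found 49 of the 30178 genes in the deposited table. Of these, 47 are proteasome genes and 2 share only the name, namely PSMC3IP, a meiotic recombination factor, and PSME3IP1, a protein that binds PSME3. PSMA8, the chain of the testis, is not analysed here. RNA sequencing had been done on 6 libraries of CAL27, an established oral carcinoma line that the labels call adenosquamous. The groups were stable CAL27 lines with MB21D2 Q311E, with wild-type MB21D2 or with an empty vector, and each had 2 libraries named A and B. All lines were kept in DMEM with the selection drug G418, and the labels describe GFP-fused proteins. Neither separate cultures for A and B nor the clonality of a line can be read in the labels, so the p-values below reflect spread between libraries that may be technical.

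The proteasome is the protease that degrades proteins tagged with ubiquitin. Its barrel, the 20S core, is built of rings of alpha chains around rings of beta chains, and PSMB5, PSMB6 and PSMB7 carry the active sites. The 19S particle caps the barrel, recognises ubiquitin, unfolds the substrate with a ring of ATPases and feeds it in. In cells exposed to interferon, PSMB8, PSMB9 and PSMB10 take the places of PSMB5, PSMB6 and PSMB7 in newly made cores, which are then called immunoproteasomes, and PSME1 and PSME2 form PA28, a cap that opens the barrel without ubiquitin recognition. Immunoproteasomes are known for cutting peptides that suit MHC class I molecules. The 5 genes PSMB8, PSMB9, PSMB10, PSME1 and PSME2 are called the inducible genes below.

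MB21D2, the gene introduced, stood at 32.8 and 21.2 FPKM in the Q311E libraries, 104 and 106 in the wild-type libraries and 8.31 and 7.15 in the vector libraries (FPKM, which scales fragments by exon length and sequencing depth, allows levels of genes to be compared per length). MB21D2 RNA was thus lower in Q311E than in wild type. Library totals, inferred from the FPKM values and exon lengths, ran between 20645410 and 24147306 reads. The SD of the log2 difference between a group's 2 libraries was 0.436 for Q311E, 0.145 for the wild type and 0.192 for the vector. Of 8 markers of squamous epithelium, 6 reached 1 FPKM in the Q311E libraries and 8 in the others, with sums of 1003 to 1077 FPKM in Q311E, 815 to 838 in the wild type and 1826 to 1908 in the vector. KRT14, a keratin of basal epithelium, was at 0.771 and 0.902 FPKM in Q311E, 2.08 and 2.35 in the wild type, and 762 and 697 in the vector. It thus held a large part of the vector sums. KRT6A, TP63, SFN and PKP1 also averaged highest in the vector. KRT5 averaged 526, 411 and 529 FPKM in Q311E, wild type and vector. In that order KRT17 averaged 121, 33.4 and 77.2, and DSP, lowest in the vector, 33.6, 46.3 and 23.2. The 4 general epithelial markers summed to 1025 and 658 FPKM in Q311E, 985 and 1000 in the wild type and 654 and 658 in the vector. White blood cells use immunoproteasomes constitutively, and their defining gene PTPRC was at 0 in 5 libraries and at 0.005 FPKM in wild type A. Of the 4 leukocyte markers in the table, CD14 alone reached 1 FPKM, at 4.93 and 18.8 in Q311E, 2.39 and 2.56 in the wild type and 1.78 and 3.17 in the vector. In bulk RNA, fewer cells of a type and less RNA per cell cannot be told apart.

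The 5 inducible genes sit at 3 places in the genome (GRCh38, GENCODE 29). PSMB8 (chromosome 6, 32840717 to 32844703) and PSMB9 (chromosome 6, 32844136 to 32859585) overlap at their ends in the MHC region, on opposite strands. PSME1 (chromosome 14, 24136158 to 24138967) and PSME2 (chromosome 14, 24143362 to 24147570) are near neighbours. PSMB10 (chromosome 16, 67934502 to 67937087) stands apart. Their promoters are shown because these genes moved together in the data below, and each line gives 80 bases before and 20 bases from the transcript start (RefSeq, GRCh38.p14). Capitals mark letters that fit GAAA, then 2 bases of any kind, then GAAA, a pattern of the interferon-stimulated response element (ISRE) that IRF factors bind, searched on both strands.
PSMB8, chr6:32844028-32844127, minus strand: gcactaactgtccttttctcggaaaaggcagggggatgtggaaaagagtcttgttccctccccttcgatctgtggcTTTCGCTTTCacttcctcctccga
PSMB10, chr16:67936831-67936930, minus strand: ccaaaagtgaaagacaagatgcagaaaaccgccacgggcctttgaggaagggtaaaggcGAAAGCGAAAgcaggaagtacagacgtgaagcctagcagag
PSME1, chr14:24136114-24136213, plus strand: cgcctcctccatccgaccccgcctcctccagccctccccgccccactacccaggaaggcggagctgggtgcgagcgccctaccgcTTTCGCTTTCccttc
PSME2, chr14:24146591-24146690, minus strand: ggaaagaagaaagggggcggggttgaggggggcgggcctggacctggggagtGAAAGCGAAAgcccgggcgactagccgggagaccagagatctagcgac
PSMB9, chr6:32854112-32854211, plus strand: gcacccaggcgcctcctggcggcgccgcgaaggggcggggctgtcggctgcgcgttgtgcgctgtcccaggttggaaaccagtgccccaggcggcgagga

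In windows of 300 bases around the start, 43 members had a promoter entry, with 54 promoters in all. The ISRE pattern was found in 4 of 5 inducible genes (PSMB8 at 1 of its 2 starts, PSMB10, PSME1 and PSME2) and in 3 of 38 other members (PSMA4, PSMB4 and PSMG4). Counted by promoter, it was in 7 of the members' 54 (13.0%), against 3.57% of all 35116 promoters. All 4 matches of the inducible genes read GAAAGCGAAA on either the gene's strand or the opposite one. TGACNNNGC, a pattern of the element bound by NFE2L1, the factor known for raising proteasome genes when proteasomes are inhibited, was in 15 of the members' 54 promoters (27.8%), against 13.3% of all promoters. The patterns were searched separately on both strands, so matches may overlap, and a match describes letters and not binding.

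Of the 49 members, 48 passed the filter of a mean of at least 1 FPKM and were tested with limma on log2(FPKM + 1). PSMB11, the chain of the thymus, was at 0 in 5 libraries and at 0.040 FPKM in wild type B. A gene was called where its Benjamini-Hochberg adjusted p over all 11481 tested genes was under 0.05. Between Q311E and wild type, 20 of the 46 tested proteasome genes (43.5%) were called, 5 higher and 15 lower, against 27.5% of all tested genes (17.5% higher and 10.1% lower). Against the vector, Q311E had 15 called proteasome genes (32.6%), 1 higher and 14 lower, beside 18% of all tested genes (8.67% higher and 9.28% lower). The wild-type line had 7 called genes (15.2%), 2 higher and 5 lower, against the vector, close to the 12.3% among all tested genes (3.54% higher and 8.76% lower). PSMC3IP and PSME3IP1 were called in no comparison. Both comparisons with the vector use the same 2 vector libraries.

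**Figure D1:**
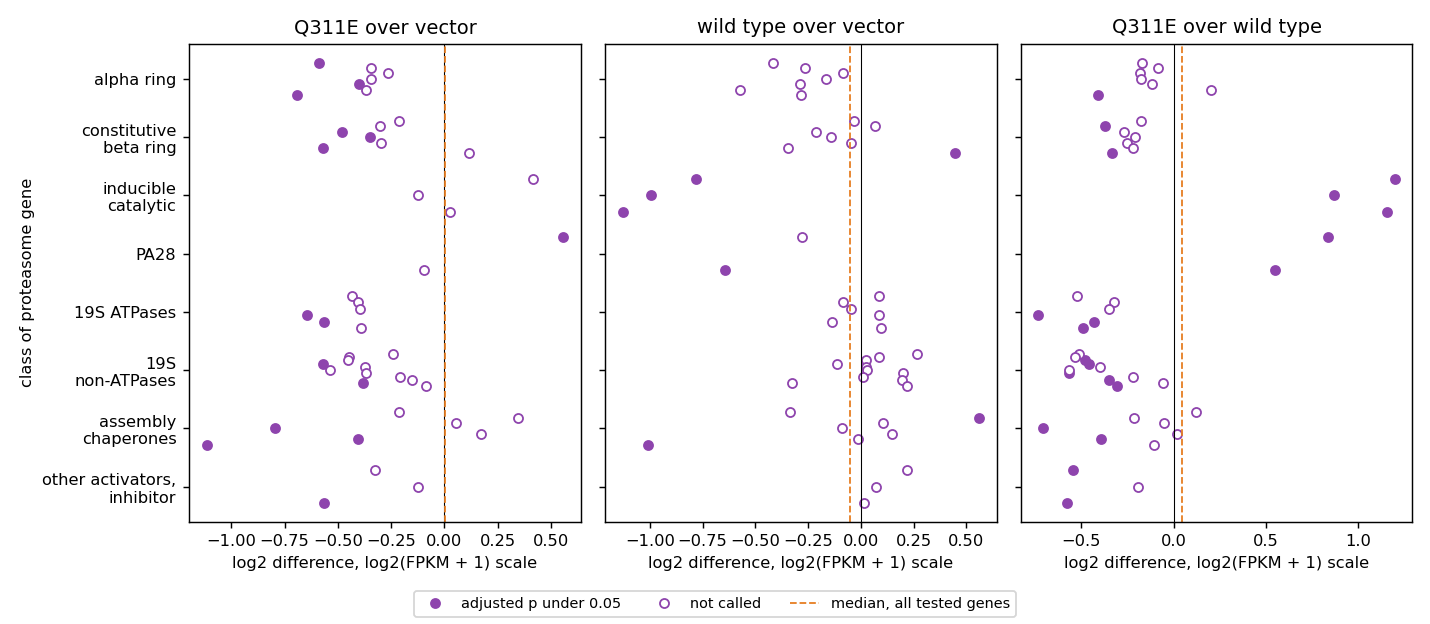
Log2 differences on the log2(FPKM + 1) scale (x axis) of the tested proteasome genes in rows by class, with a panel per comparison, filled points for adjusted p under 0.05, open points for genes not called and a dashed line at the median of all tested genes. The 5 inducible genes stand to the right of 0 between Q311E and wild type (0.55 to 1.20), whereas 19S subunits stand to the left there.

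Inducible catalytic chains were lower in the wild-type line than in the other lines. PSMB9, which replaces PSMB6, had 36.9 and 37.4 FPKM in Q311E, 15.4 and 16.8 in the wild type and 34.7 and 38.2 in the vector. Both wild-type libraries lay under all other libraries, while the Q311E values fell inside the vector's range. PSMB9 was higher in Q311E than in wild type (log2 difference 1.16 ± 0.08, adjusted p = 0.00313) and lower in wild type than in vector (-1.13 ± 0.08, adjusted p = 0.00604). Values after ± beside log2 differences are standard errors of the limma fit.

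PSMB8, which replaces PSMB5, had 43.6 and 40.3 FPKM in Q311E, 22.1 and 22.9 in the wild type and 45.9 and 45.8 in the vector. Its differences were 0.87 ± 0.08 for Q311E over wild type (adjusted p = 0.00426) and -0.995 ± 0.08 for wild type over vector (adjusted p = 0.00605). Q311E over vector gave -0.12 ± 0.08 (adjusted p = 0.291), although both Q311E values lay under both vector values. PSMB10, which replaces PSMB7, had 20.7 and 27.2 FPKM in Q311E, 9.47 and 10.1 in the wild type and 18.0 and 16.98 in the vector. Here the order was Q311E, vector, wild type with no overlap, and the calls covered Q311E over wild type (1.20 ± 0.14, adjusted p = 0.00735) and wild type over vector (-0.78 ± 0.14, adjusted p = 0.0264). For Q311E over vector PSMB10 gave 0.42 ± 0.14 (adjusted p = 0.0928).

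PA28 differed between its own 2 chains. PSME1, the alpha chain of PA28, had 148 and 183 FPKM in Q311E, 90.0 and 93.2 in the wild type and 107 and 115 in the vector. It was higher in Q311E than in wild type (0.84 ± 0.12, adjusted p = 0.0116) and was the single proteasome gene called higher in Q311E than in vector (0.56 ± 0.12, adjusted p = 0.0359). Its wild-type values lay under both vector values, but the difference was not called (-0.28 ± 0.12, adjusted p = 0.186). PSME2, the beta chain of PA28, had 51.7 and 53.6 FPKM in Q311E, 34.8 and 36.5 in the wild type and 52.7 and 60.0 in the vector. It was higher in Q311E than in wild type (0.55 ± 0.09, adjusted p = 0.0154), lower in wild type than in vector (-0.64 ± 0.09, adjusted p = 0.0174) and overlapped with the vector in Q311E (-0.09 ± 0.09, adjusted p = 0.498).

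**Figure D2:**
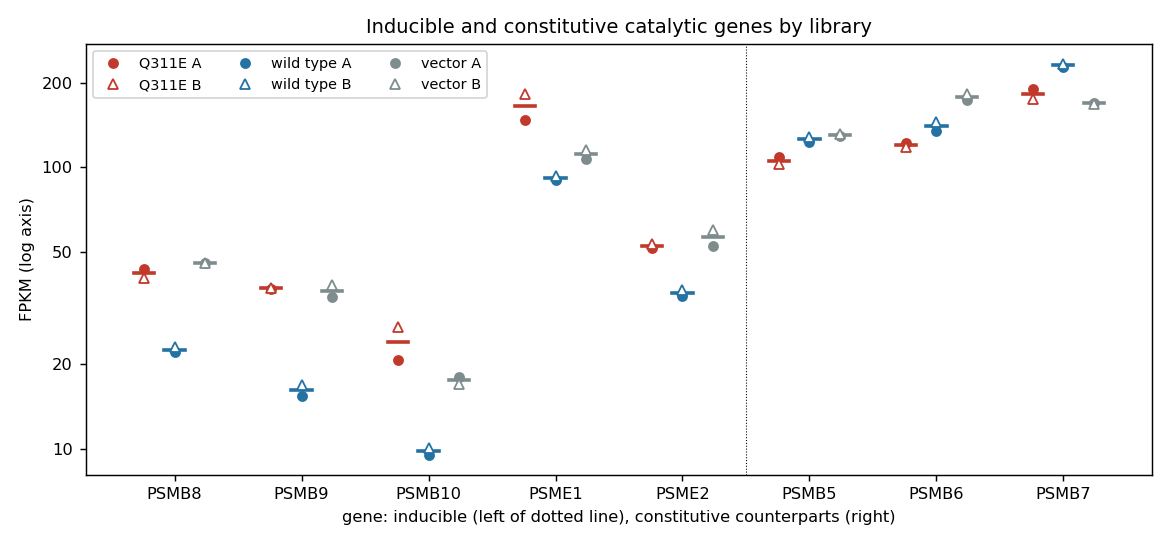
FPKM on a log axis for the 5 inducible genes and for PSMB5, PSMB6 and PSMB7 in each library, with filled circles for A, open triangles for B and bars at group means. The wild-type points of the 5 inducible genes lie under the Q311E and vector points.

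The 5 Q311E over wild type calls of the inducible genes were kept in all 11 alternatives that left no library out, and without either Q311E or either vector library. They were lost without wild type A (adjusted p = 0.0643 for PSMB9 to 0.138 for PSME2) or without wild type B (0.0539 for PSMB9 to 0.125 for PSME2), where 0 of the 11481 genes passed in limma. The wild type over vector calls were likewise lost without any 1 wild-type or vector library, and those of PSMB10 and PSME2 also with no filter. The PSME1 call over vector was lost with no filter, with median scaling, with those groups alone (adjusted p = 0.116), with variance weights per group (adjusted p = 0.0587), and without any 1 wild-type or vector library.

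Ratios of an inducible chain to the constitutive chain whose place it takes do not depend on a library's scale. PSMB8 over PSMB5, as a ratio of FPKM, was 0.401 and 0.392 in Q311E, 0.179 and 0.178 in the wild type and 0.356 and 0.348 in the vector. PSMB9 over PSMB6 was 0.303 and 0.317 in Q311E, 0.114 and 0.116 in the wild type and 0.1996 and 0.2089 in the vector. PSMB10 over PSMB7 was 0.108 and 0.155 in Q311E, 0.042 and 0.043 in the wild type and 0.106 and 0.101 in the vector. In each of these 3 ratios both Q311E libraries stood above both vector libraries, and both wild-type libraries stood below them.

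Mean ratios in Q311E were 2.22 times those in wild type for PSMB8, 2.69 times for PSMB9 and 3.12 times for PSMB10, with no test made. Set against the vector, the same ratios in Q311E were 1.13, 1.52 and 1.27 times as high. These ratios also carry the differences of the constitutive chains. For Q311E over vector, PSMB8 and PSMB9 gave log2 differences of -0.12 and 0.03, while PSMB5 and PSMB6 gave -0.30 and -0.57. The PSMB8 and PSMB9 ratios thus stood above vector through their denominators. For Q311E over wild type, PSMB7 gave -0.34, which enlarges the PSMB10 ratio in that comparison. Summed over the 3 pairs, the inducible chains held 20.2 ± 1.11% of the FPKM in Q311E, 8.87 ± 0.079% in the wild type and 17.3 ± 0.031% in the vector (SD, n = 2 each). PSME1 over PSME3, the chain of the related nuclear cap, was 4.07 and 5.94 in Q311E, 1.81 and 1.91 in the wild type and 2.38 and 2.92 in the vector. PSME2 over PSME3 was 1.42 and 1.74 in Q311E, 0.701 and 0.748 in the wild type and 1.17 and 1.52 in the vector, so its Q311E and vector ranges overlapped. These are RNA levels, and the subunits in assembled proteasomes were not measured.

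**Figure D3:**
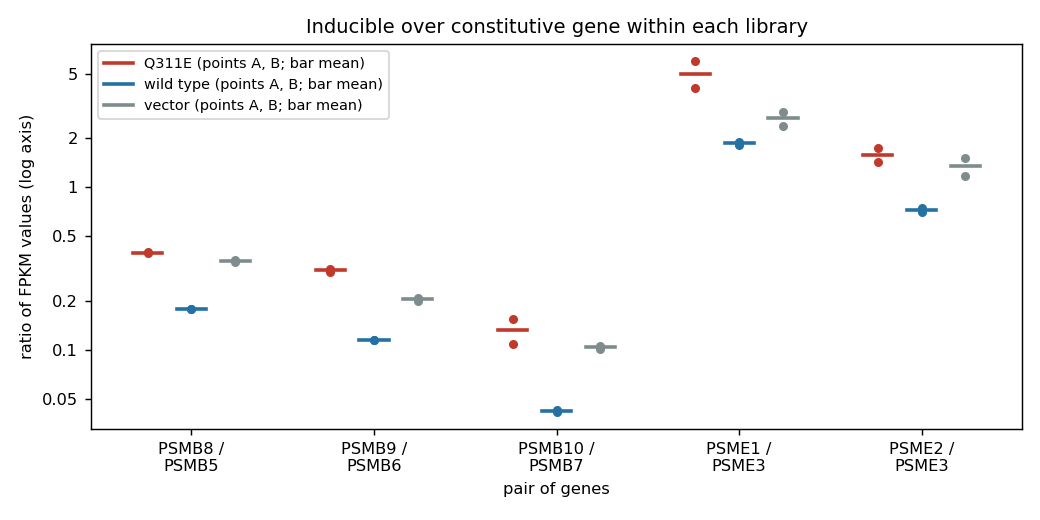
FPKM ratios of each inducible gene to its constitutive counterpart on a log axis, with a point per library and bars at group means. The wild-type libraries have the lowest value of each ratio, for example 0.179 and 0.178 for PSMB8 over PSMB5.

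The constitutive chains of the 20S core, 14 genes, were mostly lower in Q311E than in vector. Of these, 6 (42.9%) were called lower, against 9.28% of all tested genes, and 0 higher (0 higher also by limma-voom). In 13 of 14 both Q311E values lay under both vector values, as in 3443 of the 11481 tested genes. The median difference of the 14 chains was -0.35, against 0.00 over all tested genes. With wild type as the comparator, 3 of the 14 chains (21.4%) were called lower in Q311E, against 10.1% of all tested genes. The median there was -0.20 (0.05 over all tested genes). Only PSMB7 (7.14%) was called between wild type and vector, against 12.3% of all tested genes. The median of the 14 chains there was -0.19 (-0.05 over all tested genes), but -0.11 with median scaling and -0.029 with the exon length trend removed.

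Among the 7 alpha chains, which form the outer rings and the gate of the barrel, 3 fell in Q311E against vector, 1 fell in Q311E against wild type and 0 were called between wild type and vector (4 at an unadjusted p under 0.05, and 1 lower by limma-voom). The shares that fell in Q311E, 42.9% and 14.3%, stood beside 9.28% and 10.1% of all tested genes. Between wild type and vector, 12.3% of all tested genes were called. PSMA7, the alpha chain of highest level, had 143 and 138 FPKM in Q311E, 188 and 185 in the wild type and 227 and 228 in the vector. The groups formed 3 separate steps, and Q311E was lower than vector (-0.69 ± 0.08, adjusted p = 0.00836) and lower than wild type (-0.41 ± 0.08, adjusted p = 0.0213). PSMA1 had 9.74 and 10.6 FPKM in Q311E, 11.7 and 11.5 in the wild type and 14.5 and 17.2 in the vector, with a fall in Q311E against vector (-0.59 ± 0.10, adjusted p = 0.0213). PSMA5 was the third alpha chain that fell there (-0.40 ± 0.07, adjusted p = 0.0232). PSMA2, PSMA3, PSMA4 and PSMA6 gave -0.37 to -0.27 for Q311E over vector, with adjusted p of 0.0537 for PSMA3 to 0.141 for PSMA6.

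A core holds each alpha chain in equal number, yet the RNA levels per length were far apart. PSMA1, PSMA2 and PSMA6 averaged 12.5, 2.15 and 1.44 FPKM over the 6 libraries, while the other 4 alpha chains averaged 31.8 to 185. These 3 genes share 24.7%, 14.6% and 14.1% of their exon bases with another annotated gene on the same strand, and PSMA3, PSMA4, PSMA5 and PSMA7 share 0%. How the deposited counting treated shared bases is not given in the sources used here, so the levels of PSMA1, PSMA2 and PSMA6 are uncertain. PSMA6, the lowest, had 1.06 and 1.59 FPKM in Q311E, 0.896 and 1.12 in the wild type and 2.06 and 1.91 in the vector.

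The 7 constitutive beta chains lay closer together. PSMB3, a structural chain and the highest, had 175 and 168 FPKM in Q311E, 202 and 212 in the wild type and 234 and 246 in the vector, with a fall in Q311E against vector (-0.48 ± 0.09, adjusted p = 0.0214). PSMB2, another structural chain and the lowest, had 84.6 and 76.1 FPKM in Q311E, 104 and 104 in the wild type and 97.4 and 101 in the vector. It fell in Q311E against wild type (-0.37 ± 0.09, adjusted p = 0.0318), whereas the difference from vector was not called (-0.30 ± 0.09, adjusted p = 0.0666). PSMB4 was the third beta chain called against vector, beside PSMB3 and PSMB6 (-0.35 ± 0.08, adjusted p = 0.0417), and its call was kept in 4 of 11 alternatives and lost in the others, TPM scaling and the replicate block among them. The PSMB2 call against wild type was kept in 7 of 11. PSMB1 had 123 and 121 FPKM in Q311E, 131 and 145 in the wild type and 137 and 146 in the vector, with no call.

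The 3 catalytic chains that the inducible ones replace did not move alike. PSMB5, the chymotrypsin-like site, had 109 and 103 FPKM in Q311E, 123 and 129 in the wild type and 129 and 132 in the vector. No comparison of PSMB5 was called, and Q311E gave -0.25 ± 0.08 against wild type (adjusted p = 0.0660) and -0.30 ± 0.08 against vector (adjusted p = 0.0569). PSMB6, the caspase-like site, had 122 and 118 FPKM in Q311E, 135 and 145 in the wild type and 174 and 183 in the vector. It fell in Q311E against vector (-0.57 ± 0.08, adjusted p = 0.0145), and the wild type lay between the other groups without a call against either.

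PSMB7, the trypsin-like site, had 191 and 175 FPKM in Q311E, 227 and 234 in the wild type and 170 and 168 in the vector. Here the wild type was highest, above vector (0.45 ± 0.09, adjusted p = 0.0344) and above Q311E (-0.34 ± 0.09 for Q311E over wild type, adjusted p = 0.0420). The PSMB7 call of wild type over vector was lost with no filter and with TPM scaling. That of Q311E over wild type was kept in 5 of 11 alternatives, and lost with no filter, TPM scaling, quantile normalization, the replicate block, only those groups and variance weights. PSMB7 lies on chromosome 9, and its 30 nearest tested genes, 15 on each side, had median differences of 0.45 for Q311E over vector and 0.49 for wild type over vector. The part of this neighbourhood shift in the PSMB7 difference was not tested.

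Of the 17 subunits of the 19S particle, most were lower in Q311E than in either other line, and no call was made between wild type and vector. Between Q311E and wild type, 8 (47.1%) were called lower, against 10.1% of all tested genes, and 0 higher (0 higher also by limma-voom). There 16 of 17 lay below without overlap, and the median difference was -0.46. Against vector, 4 (23.5%) were called lower, beside 9.28% of all tested genes. Again 16 of 17 lay below without overlap, and the median was -0.40. Between wild type and vector 0 were called by limma and 0 by limma-voom (2 at an unadjusted p under 0.05), with a median of 0.03, and a fit of only those groups called 4 higher and 1 lower. Over all tested genes, Q311E lay below wild type without overlap in 3534 of 11481 genes and below vector in 3443.

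The size of the 19S difference depended on the Q311E library. Relative to the vector mean, the median of the 17 subunits stood at -0.23 for Q311E A and -0.57 for Q311E B, and 16 of 17 were lower in B than in A. The 14 constitutive 20S chains gave -0.34 and -0.37 in the same 2 libraries. With Q311E B left out, 14 of the 17 subunits were called lower than wild type and the median was -0.31. With Q311E A left out, 17 were called and the median was -0.63.

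**Figure D4:**
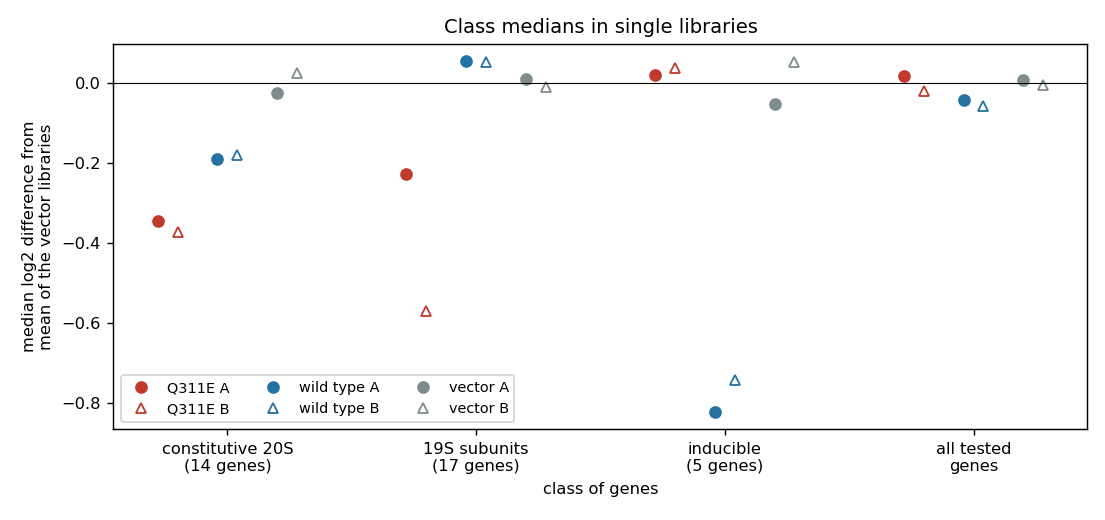
Median difference from the mean of the vector libraries, on the log2(FPKM + 1) scale, for the 20S chains, the 19S subunits, the inducible genes and all tested genes in each library, with filled circles for A and open triangles for B. The 19S median is -0.23 in Q311E A and -0.57 in Q311E B, while the inducible genes are lowest in wild type A and B (-0.82 and -0.74).

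Of the 6 base ATPases, which unfold the substrate, 3 (50%) fell in Q311E against wild type and 2 (33.3%) against vector. Among all tested genes, 10.1% and 9.28% were called lower in these comparisons. PSMC4 had 73.7 and 61.0 FPKM in Q311E, 110 and 114 in the wild type and 105 and 106 in the vector. It had the largest fall among called members between Q311E and wild type (-0.73 ± 0.11, adjusted p = 0.0120) and also fell against vector (-0.64 ± 0.11, adjusted p = 0.0192). PSMC5 fell in both comparisons as well (-0.43 ± 0.08 against wild type, adjusted p = 0.0178, and -0.57 ± 0.08 against vector, adjusted p = 0.0121). PSMC6 had 19.3 and 14.9 FPKM in Q311E, 24.7 and 23.6 in the wild type and 22.7 and 22.3 in the vector, with a call against wild type (-0.49 ± 0.13, adjusted p = 0.0425).

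The ATPase of highest level, PSMC3, had 110 and 93.9 FPKM in Q311E, 125 and 134 in the wild type and 134 and 134 in the vector, and was not called. PSMC1, the lowest, had 12.0 and 8.72 FPKM in Q311E, 15.2 and 15.2 in the wild type and 14.8 and 13.7 in the vector, and was not called either. PSMC2 gave -0.32 against wild type (adjusted p = 0.107) and -0.41 against vector (adjusted p = 0.0816). PSMC1 shares 75.8% of its exon bases with NRDE2 on the other strand, and the use of strand in counting is not given in the sources used here.

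Among the 11 non-ATPase subunits, 5 fell in Q311E against wild type (PSMD3, PSMD6, PSMD8, PSMD12 and PSMD13) and 2 against vector (PSMD7 and PSMD13). These shares, 45.5% and 18.2%, stood beside 10.1% and 9.28% called lower among all tested genes. PSMD13, a lid subunit, had 61.1 and 49.3 FPKM in Q311E, 73.6 and 78.2 in the wild type and 81.8 and 82.4 in the vector. It was lower than wild type (-0.46 ± 0.12, adjusted p = 0.0403) and lower than vector (-0.57 ± 0.12, adjusted p = 0.0306). PSMD3, also of the lid, had 67.1 and 55.2 FPKM in Q311E, 89.8 and 91.6 in the wild type and 79.2 and 78.2 in the vector, with a fall against wild type (-0.57 ± 0.11, adjusted p = 0.0209). PSMD7, which supports the deubiquitinase of the lid, had 33.9 and 28.9 FPKM in Q311E, 32.6 and 32.5 in the wild type and 41.1 and 41.0 in the vector. Q311E and wild type overlapped, and the call was Q311E over vector alone (-0.38 ± 0.09, adjusted p = 0.0467). The PSMD7 call was kept in 4 of 11 alternatives and lost in the others, TPM scaling, the replicate block and the removed length trend among them. PSMD12 and PSMD8 differed from wild type by -0.48 ± 0.12 (adjusted p = 0.0392) and -0.31 ± 0.07 (adjusted p = 0.0345). The PSMD13 calls were kept in 6 of 11 alternatives against wild type and against vector, and the PSMD8 call in 7. PSMD1 and PSMD11, without a call, gave -0.51 (adjusted p = 0.0638) and -0.53 (adjusted p = 0.0553) against wild type.

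PSMD2, the scaffold that receives ubiquitin-like carriers and the highest 19S gene, had 168 and 122 FPKM in Q311E, 210 and 217 in the wild type and 214 and 204 in the vector. Both Q311E libraries lay under the overlapping wild-type and vector values, but far from each other, and PSMD2 was not called against wild type (-0.57 ± 0.16, adjusted p = 0.0507) or vector (-0.54 ± 0.16, adjusted p = 0.0754). PSMD6, a lid subunit and the lowest, had 7.75 and 6.61 FPKM in Q311E, 9.22 and 9.55 in the wild type and 8.09 and 8.05 in the vector, and fell against wild type (-0.35 ± 0.09, adjusted p = 0.0468), a call kept in 6 of 11 alternatives and lost with TPM scaling and with the replicate block. PSMD14, the enzyme that removes ubiquitin from the substrate, had 26.8 and 19.2 FPKM in Q311E, 29.5 and 30.9 in the wild type and 30.4 and 28.99 in the vector, without a call. PSMD4, a ubiquitin receptor, was not called either, at 56.7 and 57.8 FPKM in Q311E, 66.0 and 67.5 in the wild type and 65.2 and 67.4 in the vector.

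The assembly chaperones differed among themselves, also within a pair. PSMG1, which pairs with PSMG2 to start the alpha ring, had 26.0 and 19.3 FPKM in Q311E, 37.4 and 36.8 in the wild type and 39.7 and 39.4 in the vector. It fell in Q311E against wild type (-0.71 ± 0.14, adjusted p = 0.0229) and against vector (-0.79 ± 0.14, adjusted p = 0.0213). Its partner PSMG2 had 26.6 and 29.3 FPKM in Q311E, 27.0 and 28.1 in the wild type and 24.7 and 24.8 in the vector and was called in no comparison.

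PSMG3, the chaperone of highest level, had 35.7 and 39.0 FPKM in Q311E, 50.4 and 48.1 in the wild type and 49.4 and 50.2 in the vector. It fell against wild type (-0.39 ± 0.08, adjusted p = 0.0236) and against vector (-0.41 ± 0.08, adjusted p = 0.0270). PSMG4, with which PSMG3 pairs, had 0.965 and 0.768 FPKM in Q311E, 1.13 and 0.887 in the wild type and 3.09 and 2.99 in the vector. Both MB21D2 lines were low, with falls of -1.12 ± 0.12 in Q311E (adjusted p = 0.00747) and -1.01 ± 0.12 in wild type (adjusted p = 0.0122) against vector, and PSMG4 was the single proteasome gene called lower in both. The 27 tested neighbours of PSMG4 had median differences of -0.41 for Q311E over vector and -0.77 for wild type over vector, and their part in the result was not tested.

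Of the base chaperones, PSMD5 had 30.7 and 26.4 FPKM in Q311E, 33.4 and 32.9 in the wild type and 23.9 and 20.6 in the vector. It rose in wild type against vector (0.56 ± 0.11, adjusted p = 0.0357), and Q311E over vector was not called (0.35 ± 0.11, adjusted p = 0.0882). The 30 tested neighbours of PSMD5 had medians of 0.37 for wild type over vector and 0.63 for Q311E over vector, and their part was not tested. The PSMD5 call was lost with no filter and with TPM scaling. PSMD10 and PSMD9, the other base chaperones, were called in no comparison, and PSMD9, the lowest, had 1.54 and 1.26 FPKM in Q311E, 1.59 and 1.38 in the wild type and 1.307 and 1.303 in the vector.

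**Figure D5:**
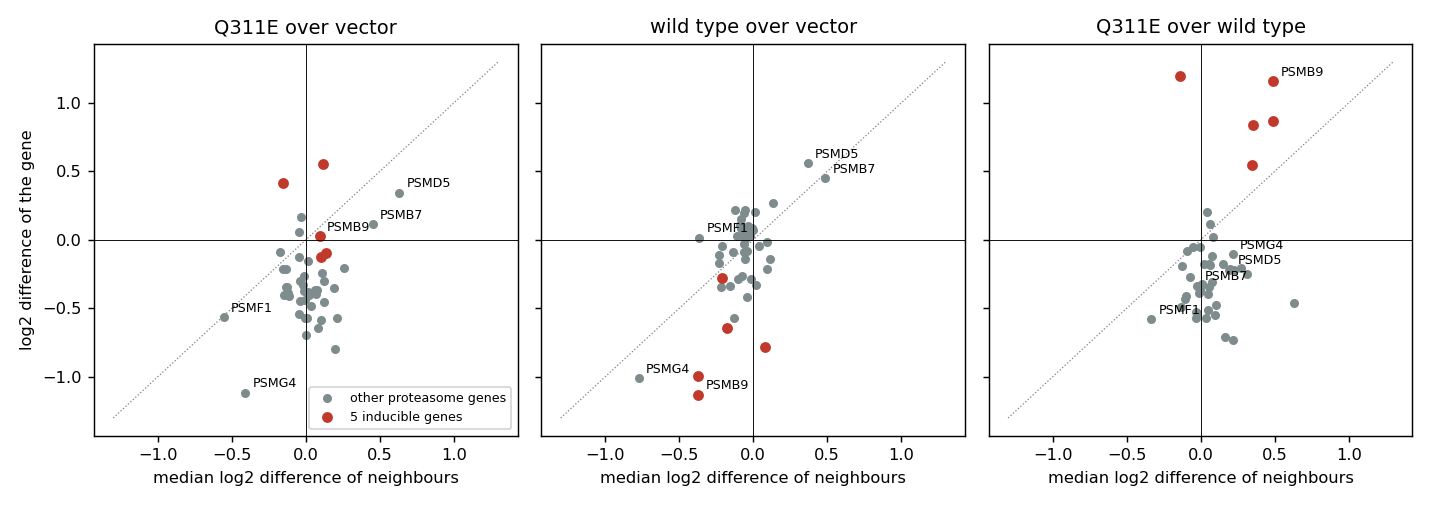
Log2 difference of each tested proteasome gene (y axis) against the median log2 difference of its nearest tested genes, up to 15 on each side (x axis), with a panel per comparison, the 5 inducible genes in red and a dotted line where both are equal. PSMB7 and PSMD5 lie in neighbourhoods raised in both MB21D2 lines against vector, and PSMG4 and PSMF1 in lowered ones.

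PSMF1, an inhibitor that blocks the ends of the core, had 13.0 and 12.4 FPKM in Q311E, 19.3 and 19.7 in the wild type and 19.5 and 19.1 in the vector. Q311E stood apart from overlapping wild-type and vector values, with falls of -0.58 ± 0.07 against wild type (adjusted p = 0.00816) and -0.56 ± 0.07 against vector (adjusted p = 0.0103). The 27 tested neighbours of PSMF1 had medians of -0.33 and -0.55 in the same comparisons, so the difference from vector was as large as that of its neighbourhood. For wild type over vector the neighbours had a median of -0.36, while PSMF1 gave 0.02 and was not called. The part of the neighbourhood in the PSMF1 differences was not tested.

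PSME3, which forms the nuclear cap PA28 gamma and is not induced with PSME1 and PSME2, had 36.3 and 30.8 FPKM in Q311E, 49.6 and 48.8 in the wild type and 45.0 and 39.6 in the vector. It fell in Q311E against wild type (-0.54 ± 0.11, adjusted p = 0.0240), opposite in sign to PSME1 and PSME2 in the same comparison. PSME4, the activator PA200, had 11.5 and 9.80 FPKM in Q311E, 12.2 and 12.4 in the wild type and 12.1 and 11.2 in the vector, with no call.

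PSMB9 and PSMB10 differed more than the median of the genes around them in both comparisons with the wild type. The tested neighbours of PSMB9 had a median of 0.49 for Q311E over wild type and -0.37 for wild type over vector, beside 1.16 and -1.13 for PSMB9 itself. This region holds other MHC genes. The neighbours of PSMB10 gave -0.14 and 0.08 in those comparisons, beside 1.20 and -0.78 for PSMB10. PSMB8 gave 0.87 and -0.995, beside the same neighbour medians as PSMB9. For Q311E over wild type, PSME1 and PSME2 gave 0.84 and 0.55, beside neighbour medians of 0.35 and 0.35. For wild type over vector they gave -0.28 and -0.64, beside -0.21 and -0.17, so PSME1 was near its neighbourhood there. The part of the neighbourhoods in these differences was not tested. PSMB10 shares 34.8% of its exon bases with another annotated gene on its own strand, so its level is uncertain. PSMB8 shares 20.6% with PSMB8-AS1 on the other strand, and PSMB9 shares 5.66% with PSMB8-AS1 on its own strand.

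Proteasome partners outside the naming rule gave 0 rises and 6 falls among 23 tested genes between Q311E and wild type (0 rises also by limma-voom), 1 rise and 4 falls between Q311E and vector, and 2 of each between wild type and vector. The shares called in either direction, 26.1%, 21.7% and 17.4% in that order, were near those of all tested genes (27.5%, 18% and 12.3%). By direction, 26.1% were lower and 0% higher in Q311E than in wild type, against 10.1% and 17.5% of all tested genes. For Q311E over vector, 17.4% were lower and 4.35% higher (9.28% and 8.67% of all tested genes). For wild type over vector, 8.70% were lower and 8.70% higher (8.76% and 3.54% of all tested genes). POMP, the chaperone that closes the core, had 101 and 90.4 FPKM in Q311E, 110 and 113 in the wild type and 144 and 151 in the vector. It fell in Q311E (-0.62 ± 0.09, adjusted p = 0.0140) and in wild type (adjusted p = 0.0469) against vector. ADRM1 and UCHL5, a ubiquitin receptor of the 19S base and the deubiquitinase it holds, fell in Q311E against both lines, with adjusted p of 0.0199 and 0.0167 against wild type and 0.0283 and 0.0381 against vector. PITHD1 fell as well, against wild type (adjusted p = 0.0156) and against vector (adjusted p = 0.0245). RAD23B, a carrier of ubiquitinated proteins, was the single partner that rose in Q311E against vector (0.64 ± 0.11, adjusted p = 0.0183). RAD23B and ECPAS, a scaffold protein of proteasomes, rose in wild type against vector (0.90 and 1.00, adjusted p = 0.0120 and 0.0239), and SEM1, a small lid subunit, fell there (-0.64, adjusted p = 0.0350). NFE2L1 averaged 39.0 FPKM in Q311E, 42.3 in the wild type and 36.9 in the vector, with no call of Q311E against wild type (adjusted p = 0.475) or vector (adjusted p = 0.689).

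Regulators that act on the inducible genes in the interferon response were in part higher in Q311E. Of 13 tested genes, 6 (46.2%) were higher in Q311E than in wild type and 4 (30.8%) higher than in vector, against 17.5% and 8.67% of all tested genes, with 0 lower in either by limma or limma-voom, and 0 were called between wild type and vector (2 at an unadjusted p under 0.05). STAT2, a subunit of the interferon-activated complex ISGF3, had 26.9 and 28.3 FPKM in Q311E, 7.89 and 8.13 in the wild type and 9.53 and 10.7 in the vector (1.67 ± 0.08 over wild type, adjusted p = 0.00164). IRF1, a factor known for driving PSMB9, had 17.1 and 19.97 FPKM in Q311E, 12.4 and 12.4 in the wild type and 13.2 and 13.6 in the vector (0.54 ± 0.09 over wild type, adjusted p = 0.0166). IFNGR2, a chain of the interferon gamma receptor, had 23.9 and 31.9 FPKM in Q311E, 15.3 and 14.7 in the wild type and 16.3 and 16.4 in the vector (0.84 over wild type, adjusted p = 0.0154). NLRC5, the activator of MHC class I genes, had 6.04 and 3.87 FPKM in Q311E, 2.26 and 2.22 in the wild type and 2.99 and 2.67 in the vector (0.86 ± 0.18 over wild type, adjusted p = 0.0270). In these 4 genes both Q311E libraries lay above all others, with a wide gap between the Q311E libraries of NLRC5.

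Genes of peptide loading and MHC class I, which use the peptides that proteasomes cut, gave 12 higher and 1 lower of 14 tested between Q311E and wild type, against 17.5% and 10.1% of all tested genes. Between Q311E and vector 10 were higher and 1 lower (8.67% and 9.28% of all tested genes), and between wild type and vector 6 were lower and 0 higher (0 higher also by limma-voom; 8.76% and 3.54% of all tested genes). Among those higher over wild type were HLA-F (2.08, adjusted p = 0.00164), HLA-B (1.61, adjusted p = 0.00185) and B2M (1.10, adjusted p = 0.00412). TAPBP, the bridge to the peptide transporter, had 104 and 125 FPKM in Q311E, 56.5 and 56.6 in the wild type and 65.7 and 67.3 in the vector (1.00 over wild type, adjusted p = 0.00609). TAP2, a chain of that transporter, was the gene called lower in Q311E (adjusted p = 0.0487 against wild type and 0.0382 against vector). TAP1, its partner and the neighbour of PSMB9, had 46.6 and 31.5 FPKM in Q311E, 25.7 and 26.4 in the wild type and 31.4 and 29.6 in the vector, without a call. Reads of class I genes can fall on near-identical copies, so their single levels are uncertain.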

How the data were processed

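The authors deposited FPKM values for 30178 human Ensembl genes in 6 libraries, per the file headers. Per the labels' protocols, libraries were made from total RNA. CASAVA is credited to the submitters' processing notes, which also list mm8 and mm9, mouse builds whose role they leave out although the identifiers are human. No aligner, counter, annotation or strand setting is given in the sources used here. A name table matched 29993 identifiers, and positions and lengths came from GENCODE 29. Whole reads could be recovered for 99.5% of genes (tolerance 0.001 reads) and for 99.9% of tested genes.

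Tests used limma 3.58.1 in R 4.3.3 with all 3 groups in 1 fit, log2(FPKM + 1), a mean minimum of 1 FPKM, a variance trend, two-sided p-values and Benjamini-Hochberg adjustment over 11481 genes, with 3 residual degrees of freedom. The log2(FPKM + 1) scale understates changes of low genes. The fit was tested on simulated data. That simulation gave a gene the same spread in every library, so it cannot speak to the wider spread between the Q311E libraries. The main fit did not pair libraries by replicate letter. The correlation of the A to B deviations was -0.01 for Q311E with wild type, 0.39 for Q311E with vector and -0.03 for wild type with vector. A shared A to B component was thus seen between Q311E and vector alone, and its source was not tested. Values by library are given for the inducible genes and their constitutive counterparts, for up to 6 called members of largest rise and of largest fall in each comparison, and for the highest and lowest gene of each class. Of up to 4 called genes of each outside list a selection is printed, some by their difference and p alone, and a few others were chosen after their values were seen. The members and lists were chosen with earlier results of these data known. Python 3.11.15, pandas 2.3.3, numpy 2.4.6 and matplotlib 3.10.9 did the rest. Alternatives changed the pseudocount, filter, scaling, groups in the fit, weights, replicate block, test and libraries. Some genes of the outside lists are not reported here by name.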

Additional observations from a re-analysis of the deposited data

How the results depend on the processing

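No called proteasome gene changed direction in any alternative. Called members between Q311E and wild type numbered 20, and 13 with TPM scaling, 34 with median scaling, 9 with no filter, 7 with only those groups and 0 to 38 with a library left out. For Q311E over vector 15 became 6 with no filter, 1 with only those groups, 6 with variance weights per group and 0 to 37 with a library left out. For wild type over vector 7 became 2 with no filter, 21 with only those groups, 23 with weights and 0 to 21 with a library left out. The median of the 20S chains for Q311E over wild type (-0.20) was -0.23 with TPM, -0.28 with the exon length trend removed (an alternative added once values had been seen), -0.32 with median scaling and -0.23 to -0.19 with a library left out. For wild type over vector it (-0.19) was -0.029 with the length trend removed, -0.11 with median and -0.13 with quantile scaling, and -0.24 to -0.12 with a library left out. The inducible median for Q311E over wild type (0.87) was 0.75 with median scaling and 0.84 to 0.99 with a library left out, and for wild type over vector (-0.78) it was -0.58 with the length trend removed. With a replicate block the counts were 21 for Q311E over wild type, 14 for Q311E over vector and 7 for wild type over vector. The 2 planned count-model tests were not run because the deposited values are FPKM, and limma-voom on recovered reads kept 42 of 42 calls.

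Calls rest on the 3 residual degrees of freedom. Without either wild-type library 1 of 42 calls was kept, and without either vector library 7. Without Q311E A, called members numbered 38 over wild type and 37 over vector, and without Q311E B 29 and 28. The spread between the Q311E libraries enters the shared variance, and the fits without 1 of them made more calls. With a single library left in a group, that library is assumed to vary like the others. Depth limits the precision of low genes: PSMA6 rested on 133 to 323 recovered reads per library.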
